A study of Arabidopsis thaliana with 6 samples.

Results

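The regions described are stretches of the Arabidopsis thaliana genome in which CG methylation of the endosperm differed between mat nrpd1+/- and both other genotypes. Each is a pair of overlapping differentially methylated regions (DMRs), of which one came from the comparison of mat nrpd1+/- with WT and the other from its comparison with pat nrpd1+/-. Neither region of a pair overlapped a CG DMR between pat nrpd1+/- and WT. There were 199 such pairs, made of 199 of the 600 CG DMRs between mat nrpd1+/- and WT (33.2%) and 199 of the 1181 between the heterozygotes (16.9%). The pairs were chosen by their listed CG differences, so the signs and sizes of these are descriptions and were not tested.

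DNA methylation was read by whole-genome bisulfite sequencing of endosperm, the nutritive tissue of the seed, at 7 days after pollination. The WT group was the F1 of a Ler mother and a Col father. The mat nrpd1+/- group had a Ler nrpd1-/- mother and a Col-0 father, and the pat nrpd1+/- group had a Ler mother and a Col-0 nrpd1-/- father. Both heterozygotes thus carried an intact NRPD1 allele from one parent and a mutant allele from the other. All 3 groups were Ler by Col hybrids. The study used a Ler mutant made by introgressing a Col-0 nrpd1 allele into Ler, and Col-0 segments remained in that line. Only the mat nrpd1+/- group had a mother from it. Other differences of that line cannot be told apart from loss of maternal NRPD1. Each group had 2 replicates, whose reads were pooled before genotypes were compared. The lists hold 1 difference per region and no value per replicate, so no spread between replicates could be given for any region. The lists also do not show how deeply any sample was sequenced.

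NRPD1 encodes the catalytic subunit of Pol IV, a plant-specific RNA polymerase that makes the precursors of small RNAs that direct methylation to matching DNA. This pathway, RNA-directed DNA methylation (RdDM), is needed above all for CHH methylation, where H is A, C or T. Methylation at CG dinucleotides is copied after replication by the methyltransferase MET1, independently of small RNAs, and in plants is found both in silenced transposons and within the transcribed bodies of many active genes.

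The sequences of 7 regions are printed to show the reference sequence of these DMRs and the CG dinucleotides in it. The reference is that of Col-0, so CG dinucleotides found only in Ler are not shown. They come from the pairs with the largest losses and gains, wherever a region was a single window of 300 bp without untranslated sequence. All are the plus strand of the RefSeq TAIR10.1 assembly, whose chromosomes are as long as those of the TAIR10 coordinates used in the lists. Lower case is used throughout except for CG dinucleotides, which are in capitals. The 4 losses lay within ESD4 at chr4:9014101-9014400, MOS14 at chr5:25125901-25126200, AT1G05840 at chr1:1764301-1764600 and AT5G42150 at chr5:16847201-16847500.
ESD4: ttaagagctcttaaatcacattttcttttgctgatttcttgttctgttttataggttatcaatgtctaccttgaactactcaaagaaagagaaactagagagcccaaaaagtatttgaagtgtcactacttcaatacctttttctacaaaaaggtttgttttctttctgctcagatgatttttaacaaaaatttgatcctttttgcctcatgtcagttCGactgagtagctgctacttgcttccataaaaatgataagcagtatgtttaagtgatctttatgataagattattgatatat
MOS14: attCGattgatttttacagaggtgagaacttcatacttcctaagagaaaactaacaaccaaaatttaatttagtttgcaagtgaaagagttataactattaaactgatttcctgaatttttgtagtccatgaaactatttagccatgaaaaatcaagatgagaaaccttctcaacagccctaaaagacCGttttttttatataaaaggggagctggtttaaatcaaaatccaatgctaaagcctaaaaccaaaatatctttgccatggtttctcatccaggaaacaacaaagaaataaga
AT1G05840: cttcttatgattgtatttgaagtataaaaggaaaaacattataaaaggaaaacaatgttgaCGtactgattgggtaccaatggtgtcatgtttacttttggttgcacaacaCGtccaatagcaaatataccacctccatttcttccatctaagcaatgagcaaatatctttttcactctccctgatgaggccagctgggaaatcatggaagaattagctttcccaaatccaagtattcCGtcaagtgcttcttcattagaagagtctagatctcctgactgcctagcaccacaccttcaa
AT5G42150: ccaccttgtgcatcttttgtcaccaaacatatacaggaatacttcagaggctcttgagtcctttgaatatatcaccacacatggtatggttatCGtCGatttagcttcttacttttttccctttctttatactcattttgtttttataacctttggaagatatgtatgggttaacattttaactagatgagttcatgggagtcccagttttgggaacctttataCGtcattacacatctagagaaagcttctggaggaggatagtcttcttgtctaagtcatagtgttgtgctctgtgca

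The 3 gains lay within THIC at chr2:12668801-12669100, AT1G33080 at chr1:11988201-11988500 and IMPA-4 at chr1:2995901-2996200.
THIC: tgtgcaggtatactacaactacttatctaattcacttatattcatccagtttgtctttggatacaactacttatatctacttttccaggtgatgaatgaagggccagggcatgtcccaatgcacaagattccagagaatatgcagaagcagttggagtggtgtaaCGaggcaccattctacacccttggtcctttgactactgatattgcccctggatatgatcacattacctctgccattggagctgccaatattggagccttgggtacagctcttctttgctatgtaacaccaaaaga
AT1G33080: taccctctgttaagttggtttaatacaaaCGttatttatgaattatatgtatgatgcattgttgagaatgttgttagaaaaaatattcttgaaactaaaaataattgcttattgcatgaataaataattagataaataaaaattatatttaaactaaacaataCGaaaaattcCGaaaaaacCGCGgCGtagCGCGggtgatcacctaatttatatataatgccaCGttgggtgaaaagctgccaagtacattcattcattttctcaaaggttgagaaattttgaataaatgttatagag
IMPA-4: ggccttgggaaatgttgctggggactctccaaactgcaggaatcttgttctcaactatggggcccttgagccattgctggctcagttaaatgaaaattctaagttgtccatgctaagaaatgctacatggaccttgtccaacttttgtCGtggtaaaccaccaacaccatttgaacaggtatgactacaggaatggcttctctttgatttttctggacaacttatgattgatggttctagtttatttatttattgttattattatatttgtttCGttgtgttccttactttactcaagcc
Most of these windows held few CG dinucleotides. There was 1 in the ESD4 and THIC windows, 2 in MOS14 and IMPA-4, 3 in AT1G05840 and AT5G42150 and 9 in the AT1G33080 window. In AT1G33080 most of the dinucleotides were crowded into part of an intron.

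In 198 of the 199 pairs (99.5%), mat nrpd1+/- differed from both other genotypes in the same direction. CG methylation was lower in mat nrpd1+/- in 99 pairs (losses) and higher in 99 pairs (gains). The rule nearly fixed this agreement in advance. Opposite signs place pat nrpd1+/- far from WT, and a pair with a CG DMR listed between those genotypes was dropped. The same mat nrpd1+/- reads also enter both comparisons, so the shared sign is not independent evidence for a region. The median difference from WT was -35.6 percentage points in the losses and 38.4 points in the gains. Against pat nrpd1+/- the medians were -36.8 and 38.7 points. Over all pairs, the size of the difference from WT had a median of 37.0 points, with quartiles of 33.5 and 43.5 and a range of 30.1 to 67.5. Among the 363 DMRs between mat nrpd1+/- and WT that overlapped no other CG list, the median size was 35.2 points.

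These regions were drawn from a small part of the genome. Of the 100-bp bins kept for the comparison of mat nrpd1+/- with WT, 0.232% lay in a CG DMR, 0.112% in a loss and 0.12% in a gain. For mat nrpd1+/- against pat nrpd1+/- the shares were 0.48% in any CG DMR, 0.204% in a loss and 0.277% in a gain. CG DMRs between pat nrpd1+/- and WT took up 0.238% of their bins. Because the rule used these contrasts, nothing is read from the number of pairs against these shares.

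**Figure D1:**
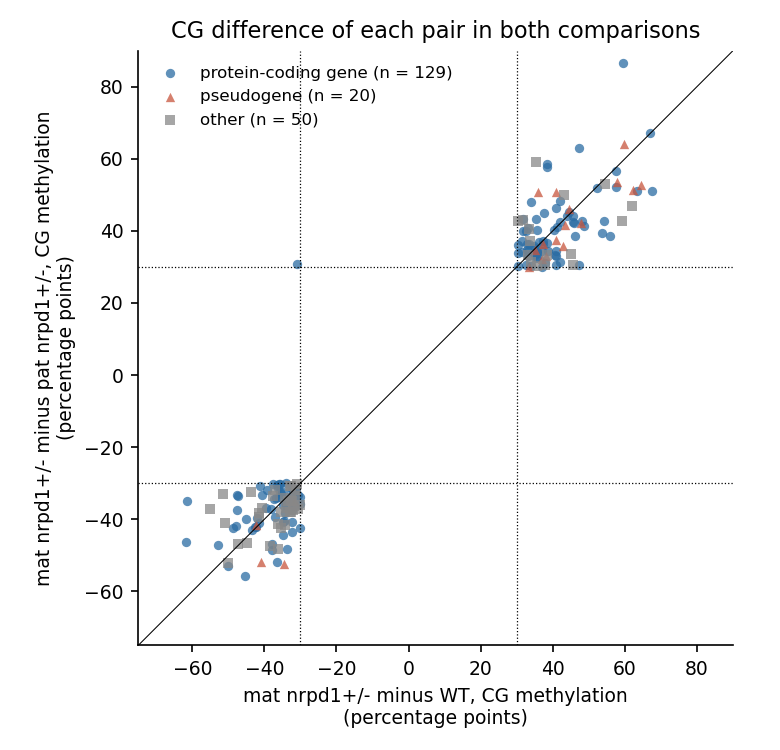
Each point is 1 of the 199 pairs, with the CG difference between mat nrpd1+/- and WT on the x axis and that between mat nrpd1+/- and pat nrpd1+/- on the y axis, both in percentage points. Dotted lines mark the 30-point threshold of the lists and the solid line marks equal differences. A single pair, in AT4G26310, lies off the 2 corners that hold 99 losses and 99 gains.

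Large differences were more often gains. Both differences reached 40 points in 49 pairs, of which 16 were losses and 33 gains. Both reached 50 points in 14 pairs, of which 2 were losses and 12 gains. By the difference from WT alone, 30 losses and 46 gains among the pairs reached 40 points, and 8 losses and 17 gains reached 50 points. Among the 363 unpaired DMRs, 37 losses and 45 gains reached 40 points, and 10 of each reached 50 points. Only differences between genotypes are known, so it cannot be said whether a loss started from a fully methylated region in WT.

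The exception in direction was a region in AT4G26310, which encodes a protein of the elongation factor P family. There mat nrpd1+/- minus WT was -30.9 points over chr4:13314701-13315000 and mat nrpd1+/- minus pat nrpd1+/- was 31.0 points over chr4:13314501-13315000. The second region is longer than the first, so the values cannot be subtracted. No CG DMR between pat nrpd1+/- and WT was listed there.

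Where both regions of a pair had identical ends, the 2 differences could be subtracted to place pat nrpd1+/- relative to WT. This was possible for 113 pairs. The implied difference of pat nrpd1+/- from WT had a median of 0.055 points, with quartiles of -3.21 and 3.84 points. It was within 10 points in 95 of the 113 pairs and reached 30 points in 0. A region listed at that size for pat nrpd1+/- against WT would have been left out by the rule. Both subtracted differences were also selected at 30 points or more, and most lay not far above that threshold. Small implied differences were therefore favoured by the rule and are a description only. The extremes were -27.1 and 15.4 points. The lower one came from the THIC window, where mat nrpd1+/- was 59.6 points above WT and 86.6 points above pat nrpd1+/-. The cytosines shared by each couple of genotypes could differ between comparisons, so the subtraction is approximate.

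The smallest differences inside the rule were -30.054 points against WT, in AT5G24740, and -30.035 points against pat nrpd1+/-, in the pentatricopeptide repeat gene AT3G49710. Just outside the rule were 6 DMRs between mat nrpd1+/- and WT that overlapped a DMR between the heterozygotes but were left out for a CG DMR between pat nrpd1+/- and WT. In 5 of them the region itself overlapped that DMR. For example, chr1:6722901-6723500 was 58.6 points higher in mat nrpd1+/- than in WT and its partner 74.9 points higher than in pat nrpd1+/-, and in a DMR there pat nrpd1+/- differed from WT by -33.2 points. Others had opposite signs. The region at chr4:7469401-7469700 differed by -63.6 points from WT and its partner by 38.9 points from pat nrpd1+/-. At chr5:10207901-10208300 these values were -57.8 and 32.6 points. The sixth, chr2:10357901-10358200, differed by -32.0 points from WT and its partner by -31.8 points from pat nrpd1+/-, and only the partner overlapped a DMR of pat nrpd1+/-, of 40.3 points. Of the 363 unpaired DMRs, 21 lay within 1000 bp of a DMR between the heterozygotes without overlapping it.

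The largest losses were in genes of varied function. In ESD4, which encodes a SUMO protease that represses flowering, CG methylation in mat nrpd1+/- differed by -50.1 points from WT and by -53.0 points from pat nrpd1+/-. The 400-bp pair covered 99 bp of coding exon and 301 bp of intron and held 2 CG dinucleotides. In an intron of MOS14, which encodes a nuclear import receptor for splicing factors, the differences were -52.9 and -47.1 points. The aspartyl protease gene AT1G05840 had the largest loss against WT, of -61.9 points, and a loss of -46.2 points against pat nrpd1+/-. In AT5G42150, which encodes a protein of the glutathione S-transferase family, the values were -45.4 and -55.9 points. EXO70B1, which encodes a subunit of the exocyst complex that tethers secretory vesicles, differed by -43.5 points against WT and by -43.0 points against pat nrpd1+/- across a stretch of coding exon.

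The other ranked losses were partly outside genes. An intergenic region at chr3:10405001-10405500, 1489 bp from AT3G27999, differed by -50.1 points against WT and by -52.0 points against pat nrpd1+/-. An intergenic region at chr1:13463401-13463900 had differences of -47.3 and -47.0 points. A region at chr2:9482001-9482400, which overlapped the non-coding gene AT2G07555 by 100 bp, had differences of -44.9 and -46.7 points. Losses in AT3G29570, which encodes an uncharacterized protein, were -48.6 and -42.5 points, and those in the leucine-rich repeat kinase gene AT2G24230 were -42.5 and -42.2 points.

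The largest gain by the smaller of its differences was in AT5G22780, which encodes an alpha subunit of the AP-2 adaptor complex of endocytosis. Its 500-bp pair was 66.96 points above WT and 67.09 points above pat nrpd1+/- over 9 CG dinucleotides. THIC, which encodes an enzyme of thiamine synthesis, showed 59.6 and 86.6 points, the latter the largest difference of any pair. AT1G33080, which encodes a MATE family transporter, gained 57.6 and 56.7 points within an intron. IMPA-4, which encodes an importin alpha of nuclear import, gained 57.5 and 52.3 points. AT5G39770, annotated as a restriction endonuclease-like protein, gained 52.3 and 52.0 points over 700 bp. The largest gain against WT alone was in LARP1a, which encodes an RNA-binding protein and was named after its values were seen. There the differences were 67.5 and 51.0 points.

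Of the 10 ranked gains, 4 overlapped pseudogenes. They were AT5G38285 with 59.9 and 64.2 points, AT3G28865 with 57.8 and 53.5 points, AT4G12915 with 64.6 and 52.8 points, and AT4G03732 with 62.2 and 51.3 points against WT and pat nrpd1+/-. The region at AT4G03732 was the longest of all, at 1300 bp and 43 CG dinucleotides, of which the pseudogene itself covered 180 bp. The remaining ranked gain, of 54.4 and 53.1 points, was intergenic at chr2:6915801-6916300, 1213 bp downstream of AT2G15880. The ranked losses overlapped 0 pseudogenes. The RefSeq annotation does not mark transposons as such, so whether a pseudogene or an intergenic region is a transposon was not determined.

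Over all pairs, 129 of 199 (64.8%, exact 95% Clopper-Pearson interval 57.8% to 71.4%) overlapped a protein-coding gene and 119 lay wholly inside coding genes. They touched 135 genes, and no gene held more than 1 pair. Intervals here and below cover only the counting of regions. Coding exons were touched by 117 pairs (58.8%), introns by 100 (50.3%) and untranslated regions by 27 (13.6%). Pseudogenes were touched by 21 pairs (10.6%), and 45 pairs (22.6%) overlapped no annotated gene. The 1 kb upstream of a coding gene was reached by 29 pairs (14.6%), of which 15 overlapped no coding gene. Among the 45 intergenic pairs, the nearest coding gene was a median of 1764 bp away and at most 27168 bp away.

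Regions from the list of mat nrpd1+/- against WT can be compared with the unpaired regions of that list. Of the paired regions, 64.3% (57.2% to 71.0%) overlapped a coding gene, against 54.0% (48.7% to 59.2%) of the 363 unpaired ones. Paired regions were longer, since 60.3% of them were a single window against 79.3% of the unpaired. Among single windows the shares on a coding gene were 69.2% (60.1% to 77.3%) and 59.0% (53.1% to 64.8%). These intervals overlap and no test was run. The bases give a smaller contrast. Coding genes held 56.4% of the bases in pairs, 50.7% of those in unpaired regions and 54.8% of the sequence kept in all 3 genotypes. The order changed when CG dinucleotides were counted in place of bases, with 42.1% of those in pairs, 37.6% of those in unpaired regions and 60.0% of those in the kept sequence lying in coding genes.

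The composition within genes differed more from the kept sequence. Introns made up 25.5% of the bases in pairs and 15.5% of the kept sequence, and they were touched by 49.2% of the paired and 39.9% of the unpaired regions of mat nrpd1+/- against WT. Untranslated regions made up 4.33% of the bases in pairs, 4.82% of those in unpaired regions and 10.7% of the kept sequence. The 1 kb upstream of genes made up 5.53%, 8.15% and 13.5% of the same, and was touched by 14.6% of both the paired and the unpaired regions. Coding exons took 26.6% of the bases in pairs, 25.9% of those in unpaired regions and 28.6% of the kept sequence. For comparison, 14.97% of the bases in CG DMRs between pat nrpd1+/- and WT were in the 1 kb upstream of genes. That list entered the rule only through the regions it removed.

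**Figure D2:**
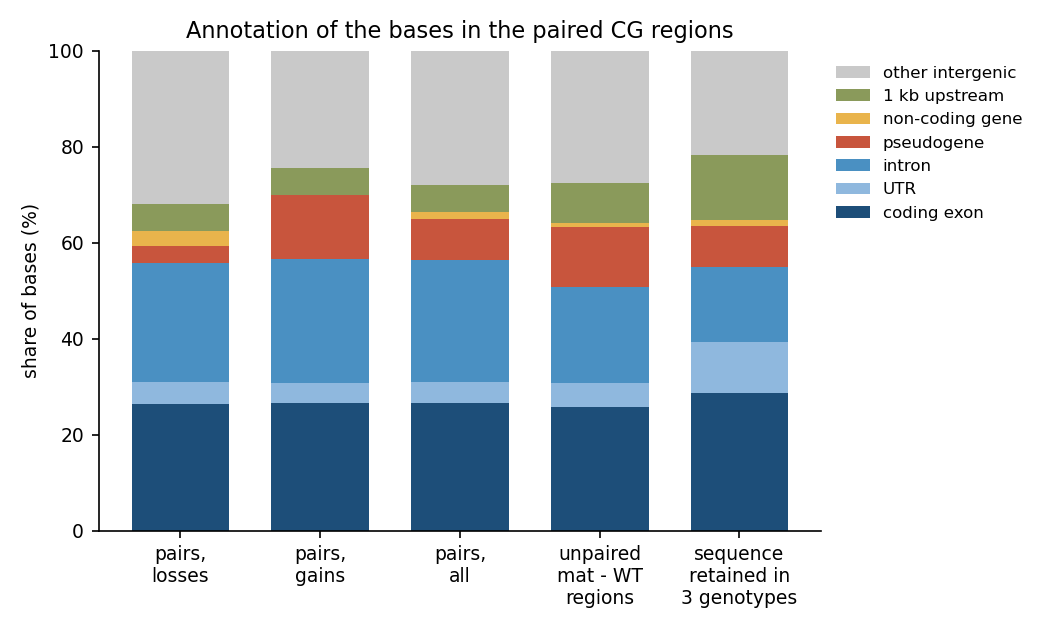
Stacked bars give the percent of bases in each annotation class, for losses, gains and all pairs, for the 363 unpaired regions of mat nrpd1+/- against WT, and for the sequence kept in all 3 genotypes. Pseudogenes took 13.5% of the bases of gains, 3.51% of those of losses, 12.6% of those of unpaired regions and 8.54% of the kept sequence, and introns took 25.5% of the bases of all pairs against 15.5% of the kept sequence.

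Losses and gains differed in where they lay outside coding genes. Pseudogenes were touched by 17 of the 99 gains (17.2%, 10.3% to 26.1%) and by 4 of the 99 losses (4.04%, 1.11% to 10.02%). Regions without any annotated gene made up 29 of the losses (29.3%, 20.6% to 39.3%) and 16 of the gains (16.2%, 9.53% to 24.9%). Among the unpaired regions, pseudogenes were touched by 17.0% of the gains and 13.0% of the losses, and 28.9% of the gains and 30.2% of the losses had no annotated gene. The gains among the pairs were thus near the unpaired share for pseudogenes and the losses below it, while for intergenic regions the losses were near it and the gains below it. Non-coding genes were touched by 7 pairs (3.52%), all of them losses, and by 2.20% of the unpaired regions, whose direction there was not counted. Of these 7 pairs, 2 also overlapped a coding gene. Coding genes were touched by 61 losses (61.6%) and 67 gains (67.7%). The median gain against WT was 42.8 points in pseudogenes and 38.3 points in coding genes. Direction was a value the rule used, and these splits were noticed after the data were seen, so they are given without a test.

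Within coding genes the pairs were sparse near the 5′ end. The midpoint of a pair was at a median of 0.555 of the length of the gene from its 5′ end, with quartiles of 0.402 and 0.708. Of 129 midpoints, 4 were in the outer 10% at the 5′ end and 11 in the outer 10% at the 3′ end. An even spread would put 12.9 in each. Only 119 of these pairs lay wholly inside coding genes. Midpoints beyond an end of the gene, as at AT1G32975 and LCR84, were counted at that end. Losses were centred farther along than gains, at a median of 0.625 against 0.495. In 43 of the 61 losses the midpoint lay nearer the 3′ end, against 31 of the 67 gains. Direction was a value the rule used, and this split was not tested. Positions were not taken for the unpaired regions, so none of these positions is shown to be particular to the pairs. Genes with a pair were long, with a median length of 3400 bp, where the median of all 27444 coding genes was 2078 bp. Longer genes offer more sequence to overlap, so regions placed anywhere in genes would also fall more often in long ones. The part of gene length in these counts was not tested.

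**Figure D3:**
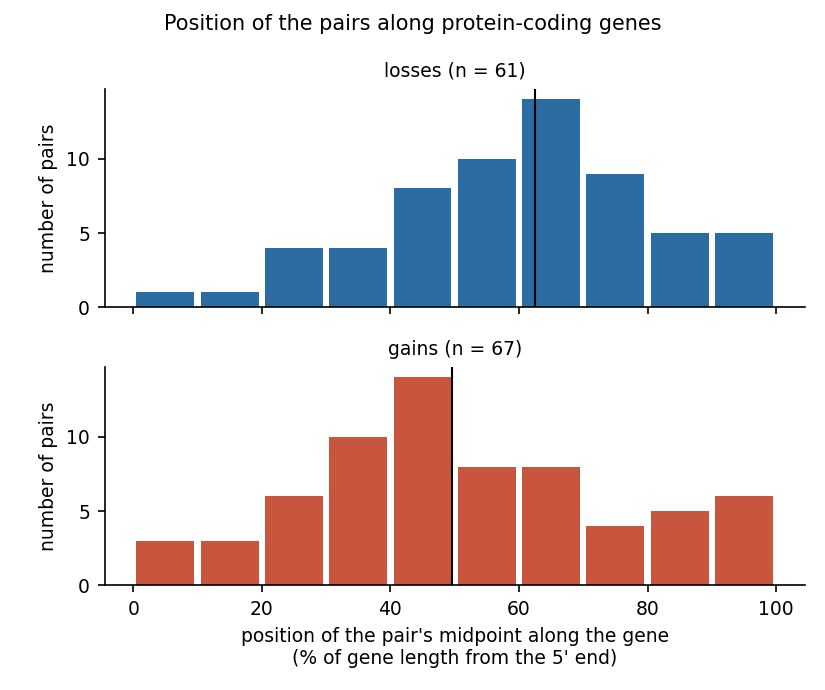
Bars count pairs by the position of their midpoint along the coding gene, in steps of 10% of gene length from the 5′ end, for the 61 losses (top) and the 67 gains (bottom), and the vertical line marks the median. The fullest step is 60% to 70% for losses, with 14 pairs, and 40% to 50% for gains, with 14 pairs. Midpoints beyond an end of the gene are counted in the outermost step at that end.

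Within genes, the pairs were poor in CG dinucleotides. Together they covered 81700 bp with 1531 CG dinucleotides, or 1.87 per 100 bp, where the kept sequence had 2.33 per 100 bp. In introns the pairs had 0.817 per 100 bp against 1.31 in kept introns, and in coding exons 1.96 against 3.39. The unpaired regions had 1.01 in introns and 1.97 in coding exons. Outside coding genes the order was the other way in most classes, with 2.48 in other intergenic sequence of pairs against 1.91 in the kept sequence, 2.37 against 1.84 in the 1 kb upstream of genes and 3.67 against 2.56 in non-coding genes. In pseudogenes it was 2.38 against 2.75. A pair held a median of 7 CG dinucleotides, with quartiles of 3 and 10 and a range of 1 to 51. The median density per pair was 1.57 per 100 bp.

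A difference in a region with few CG dinucleotides rests on few cytosines. There were 27 pairs with 1 or 2 CG dinucleotides, of which 25 overlapped a coding gene, and 52 pairs with 10 or more, of which 14 did. The median size of the difference from WT was 41.2 points in the former and 37.5 points in the latter. In 7 pairs the reference held a single CG dinucleotide over the union of both regions, which makes 2 cytosines when both strands are counted, fewer than the 3 shared cytosines the methods ask of a window. Taking the listed regions one by one, 10 pairs had at least 1 region with a single CG dinucleotide, the ESD4 window printed above among them. The same held for 4.02% of the paired and 2.48% of the unpaired regions of mat nrpd1+/- against WT, and for 100 of all 2488 CG DMRs. How these windows passed was not determined. Besides THIC and AT2G24230, the 7 pairs lay in EMB2016, AT4G17240, cpHsc70-2, SDG29 and the pseudogene AT4G04426. Among them SDG29, which encodes a histone methyltransferase of the trithorax group, had gains of 63.3 and 51.2 points. Without these 7 pairs, 192 remained, of which 50% were losses and 64.1% overlapped a coding gene.

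**Figure D4:**
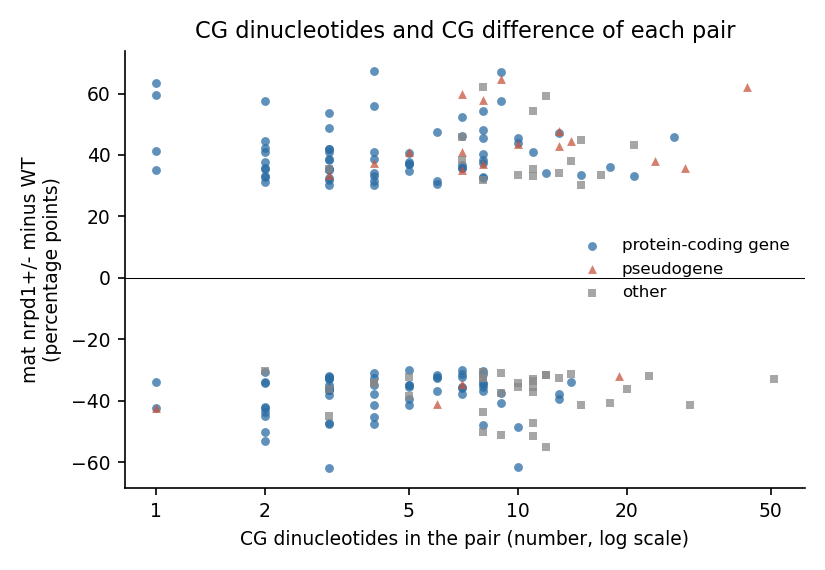
Each point is a pair, with its number of CG dinucleotides in the reference on a log axis and the CG difference between mat nrpd1+/- and WT in percentage points on the y axis. Pairs with 1 or 2 CG dinucleotides lie almost all in coding genes (25 of 27), and both losses and gains occur there, 13 and 14.

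In 5 pairs both differences were equal to 3 decimals. These were TIL2 with 35.1 points, EMB2016 with 41.2, RAPTOR1 with 30.3, the pair shared by PBD1 and AT3G22620 with 37.3, and AT5G39390 with 40.3. All were gains in coding genes. The regions of 4 of these pairs had identical ends, and the same approximate subtraction places pat nrpd1+/- at 0 points from WT there. The level itself is not in the lists.

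Genes of the methylation machinery and of seed development were looked up by name. Of 24 genes of RdDM kept in all 3 genotypes, 1 had a pair within 1 kb. This was SHH2, a homologue of the protein SHH1 that recruits Pol IV to chromatin marked by histone H3 lysine methylation. Its pair, at chr3:6311801-6312100 in the middle of the gene, was 31.3 points above WT and 37.1 points above pat nrpd1+/-, over 2 CG dinucleotides. None of the 9 kept genes for the maintenance of methylation, the 5 kept genes of demethylation, the 24 kept polycomb and imprinted genes or the 18 kept genes of endosperm and seed development had one. These 4 groups hold 56 kept genes, and a count of 0 allows a share of up to 5.36% (3 genes of 56), while 0.934% of all kept coding genes had a pair within 1 kb. Lists of this length therefore say little either way. NRPD1 itself was not wholly within the kept sequence.

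By their annotated products, 12 of the 135 genes (8.89%) were kinases, where 4.88% of the 20673 coding genes kept in all 3 genotypes were. They included BIN2, a kinase of brassinosteroid signalling, with gains of 38.5 and 58.5 points, and KIN11, a catalytic subunit of the energy sensor SnRK1, with losses of -31.2 and -31.6 points. The calcium-dependent kinase gene CPK4 had losses of -37.4 and -34.5 points. The kinases were split evenly, with 6 losses and 6 gains. Proteases and peptidases made up 10 genes (7.41%, against 1.89% of kept genes), again with 5 losses and 5 gains. F-box proteins made up 5 genes (3.70%, against 2.49%). Transporters made up 4 genes (2.96%, against 2.02%), among them UMAMIT29, an amino acid exporter active in developing seeds, with gains of 31.4 and 34.2 points. Genes named EMB or MEE for defects in embryo development made up 5 genes (3.70%, against 0.803%), of which 3 held losses and 2 gains. Uncharacterized proteins made up 7 genes (5.19%, against 10.8%), the only one of these groups below its share of kept genes. These groups were chosen after the genes were seen, genes with a pair were longer than other genes, and no enrichment was tested.

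CHH methylation, which the rule did not use, was changed at few of the pairs. A CHH DMR between mat nrpd1+/- and WT overlapped 9 of 199 pairs (4.52%, 2.09% to 8.41%), which is the share over the union of both regions. Over single listed regions of mat nrpd1+/- against WT it was 4.02% (1.75% to 7.77%) of the paired and 3.86% (2.12% to 6.39%) of the unpaired. The share moved with length. It was 10.7% in pairs with both regions over 1 window and 1.15% in pairs with both of exactly 1 window, and among listed regions of a single window it was 2.50% of the paired and 2.78% of the unpaired. Counted in 100-bp bins, 3.67% of the 817 bins in pairs and 2.96% of the 1182 bins in unpaired regions lay in such a CHH DMR, where 0.945% of all bins kept for that comparison did. CHH DMRs between the heterozygotes covered 2.69% of the bins in pairs against 0.933% of all kept bins. For pat nrpd1+/- against WT, the shares were 0.734% and 0.724%. The CHH lists come from the same libraries as the CG lists.

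Of all CHH DMRs between mat nrpd1+/- and WT, 1118 were lower and 1116 higher in mat nrpd1+/-. In 6 of the 9 pairs the CHH difference from WT had the sign of the CG difference, too few to read as a link. The largest CHH difference among these 6 was in an intergenic region at chr3:11286601-11287100, 1198 bp from AT3G29385. There mat nrpd1+/- differed from WT by -37.2 points in CG and by -31.8 points in CHH. Against pat nrpd1+/- the differences were -31.9 points in CG and -38.9 points in CHH. Smaller CHH losses went with CG losses near UGT78D1 (CG -43.8, CHH -12.5 points), beside AT3G28956 (CG -32.9, CHH -12.4) and near PUB8 (CG -32.5, CHH -13.8). The pair beside AT3G28956 also overlapped a CHH DMR between pat nrpd1+/- and WT, of 22.99 points. CG and CHH rose together at AT3G22125 and AT3G22142 (CG 33.1, CHH 10.3) and at the pseudogene AT5G28605 (CG 35.9, CHH 23.5).

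In the other 3 pairs CG and CHH went opposite ways. At chr4:7561501-7562100, 6185 bp from UND, mat nrpd1+/- differed from WT by 43.2 points in CG and by -48.1 points in CHH. Near AT2G05790 a CG gain of 35.4 points went with a CHH difference of -10.9 points, and near AT1G36070 a CG loss of -47.3 points with a CHH difference of 16.7 points. A further 3 pairs had a CHH DMR only in other comparisons. At PIRL2, which encodes a leucine-rich repeat protein, a CG difference of -37.8 points from WT went with a CHH difference of 18.1 points between pat nrpd1+/- and WT. At the disease resistance gene RPP4 and the neighbouring pseudogene AT4G16870, a CG gain of 47.2 points lay beside a CHH difference of -17.1 points between pat nrpd1+/- and WT and of 23.9 points between the heterozygotes. The third, 7339 bp from PR1, had a CG loss of -31.6 points and a CHH difference of 14.3 points between the heterozygotes.

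The pairs were spread over all chromosomes. Per Mb of sequence kept in all 3 genotypes there were 1.48 pairs on chromosome 1, 2.57 on chromosome 2, 2.41 on chromosome 3, 2.35 on chromosome 4 and 2.29 on chromosome 5. All CG DMRs between mat nrpd1+/- and WT were also sparsest on chromosome 1, at 5.03 per Mb against 6.51 to 7.72 on the others. Direction was uneven among chromosomes. Chromosome 3 held 31 losses and 20 gains, and chromosome 5 held 17 losses and 34 gains, where the unpaired regions had 42 losses and 40 gains on chromosome 3 and 48 losses and 50 gains on chromosome 5. Without chromosome 5 the losses were 55.4% of the pairs, and without chromosome 3 they were 45.9%. The share of coding genes in the surrounding 100 kb had a median of 54.4% for pairs and 53.5% for unpaired regions.

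**Figure D5:**
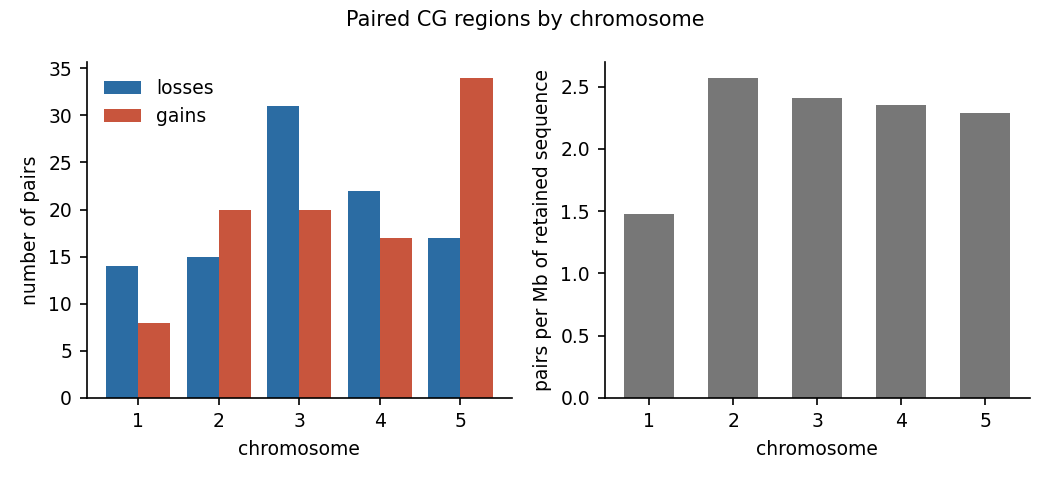
The left panel counts losses and gains among the pairs on each chromosome, and the right panel gives pairs per Mb of sequence kept in all 3 genotypes. Chromosome 5 held 34 gains and 17 losses, and chromosome 1 had the lowest density at 1.48 pairs per Mb, as it had for all CG DMRs between mat nrpd1+/- and WT (5.03 per Mb).

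Most pairs stood alone. The nearest other pair was a median of 183400 bp away, and 10 pairs lay within 10000 bp of another, in 5 couples. Both pairs of each couple changed in the same direction. The closest were a couple of losses 500 bp apart upstream of AT4G17910, with differences from WT of -32.3 and -40.6 points. At chr4:7559401-7562100, gains of 64.6 and 43.2 points from WT lay 1500 bp apart. The nearest CG DMR between pat nrpd1+/- and WT was a median of 45600 bp away, and 2 pairs had one within 1000 bp.

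All 199 pairs lay wholly within sequence whose maternal read share passed the filter of the study in all 3 genotypes. This was nearly fixed in advance, since the study limited its analyses to such sequence. Of the 600 CG DMRs between mat nrpd1+/- and WT, all passed in both of those genotypes and 597 in pat nrpd1+/-. Each pair took the maternal fraction listed for the stretch of sequence that held it, and pairs far apart shared 1 value. The pairs at chr1:1764301-1764600 and chr1:3044001-3044400, for example, had the same value as each other in every genotype. Medians of these values over the pairs were 0.634 (WT), 0.636 (mat nrpd1+/-) and 0.639 (pat nrpd1+/-). They describe long stretches, so the balance of parental reads at a pair itself was not tested. One pair, at chr3:17392201-17392700 on the pseudogene AT3G47230, overlapped a region in which CG methylation varied between the replicates of pat nrpd1+/-. Such overlap was rare but did not keep a region out of the list, since 2 of the 1181 CG DMRs between the heterozygotes had it. Whether the pairs had enough reads to be listed for pat nrpd1+/- against WT is not shown by the lists. A region in which CHH methylation varied between replicates of some genotype overlapped 14 pairs.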

How the data were processed

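Whole-genome bisulfite sequencing of endosperm covered 6 samples, in 3 genotypes of 2 replicates per the labels. The authors trimmed reads with Trim Galore, aligned them to TAIR10 with Bismark, computed methylation in overlapping 300-bp windows and pooled replicates. Windows differing by 30 percentage points (CG) or 10 points (CHH) were merged into DMRs. The deposited differences are in percentage points of methylation. The maternal-read lists give the deposited maternal share as a fraction of reads. The authors excluded regions variable between replicates, although 2 CG DMRs between the heterozygotes still overlapped one of pat nrpd1+/-.

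In Python 3 with pandas and scipy, overlapping rows (1 bp or more) of both mat nrpd1+/- lists were paired, and a pair was dropped when either row overlapped a CG DMR between pat nrpd1+/- and WT. The code was tested on simulated regions. Each pair was annotated over the union of its rows with RefSeq TAIR10.1. Shares have exact 95% Clopper-Pearson intervals. No test was run, because the lists hold no replicates.

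Named pairs were the 10 largest losses and gains by the smaller of both differences, pairs within 1 kb of a listed gene, pairs on CHH DMRs or on variable CG regions, and those nearest the thresholds. Sequences came from the ranked pairs, up to 4 per direction. Members and gene lists were chosen with earlier results of these data known.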

Additional observations from a re-analysis of the deposited data

How the results depend on the processing

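Of 82 values recomputed under 17 alternatives, 69 stayed within the counting interval of the reported value (counts within 1.5 times of it) and 13 did not. The 199 pairs became 113 with identical ends in both lists, 56 with both regions longer than 1 window, 49 with both differences of at least 40 points and 87 with both regions of exactly 1 window, an alternative chosen after seeing the data. The share of losses fell from 49.7% to 32.7% at 40 points. The share on coding genes, 64.8%, was 73.5% with identical ends, 51.8% in regions over 1 window and 77.0% in single windows. The share upstream of a coding gene rose from 14.6% to 31.7% when 2 kb was used. The share with a CHH DMR, 4.52%, was 10.7% in regions over 1 window and 1.15% in single windows. The median difference from WT, 37.0 points, was 47.8 at 40 points and 41.0 in regions over 1 window. The 40-point alternative selects on that difference, so its median could not fall below 40 points and this move was fixed in advance. Dropping the 7 pairs with fewer than 3 CG cytosines, also chosen after seeing the data, moved none of the recomputed values.

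No paired analysis was possible because the lists pool the replicates of each genotype, and for the same reason no replicate was left out. Read depth per region is not in the lists, so a region absent from one was not necessarily tested there. A difference in a region with few CG dinucleotides has an unknown counting error. Both differences of a pair share the mat nrpd1+/- libraries, and parental plants cannot be told apart from genotype.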
